A study of Mus musculus with 36 samples.

Results

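Day 3 of a motor neuron differentiation was compared with day 2.5, an interval of 12 hours between hour 60 and hour 72 of culture. Several motor neuron transcription factors had their highest levels at these times. The comparison was chosen by the labelled sampling day and not by any measured value, and it used 6 of the 36 libraries of the time course, 3 from each day. All cells were HM1, a mouse embryonic stem cell line isolated for its lack of Hprt, and no other genetic change was given in the labels. All 6 cultures had first been made into neuromesodermal progenitors with bFGF, the Wnt activator CHIR99021 and the Activin and BMP receptor inhibitors SB431542 and DMH1. From day 0 all 6 then received 100 nM retinoic acid and 500 nM SAG, an agonist of the Hedgehog receptor component Smoothened, in N2B27 medium that was changed every day. The same agents were thus present on both days, no untreated culture of the same ages was compared, and day 2.5 served as the control. RNA with poly(A) tails from whole cultures was sequenced, so fewer cells of a type and less RNA per cell cannot be told apart in any value below. HM1 is a single line grown on feeder cells that were removed before plating, and the labels call the libraries of a day biological replicates without saying that they came from separate cultures, so each p-value rests on the spread among these libraries, which may be technical.

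In the ventral spinal cord, Hedgehog signal from the floor plate divides dividing progenitors into stripes. The Olig2 stripe gives motor neurons, and the Nkx2-2 stripe below it, called p3, gives visceral motor neurons in the hindbrain and V3 interneurons in the spinal cord. A progenitor that leaves the cell cycle switches on Isl1, Mnx1 and the LIM factors Lhx3 and Lhx4, then the genes of acetylcholine synthesis. Retinoic acid, made by Aldh1a2 and destroyed by enzymes of the Cyp26 family, drives neurogenesis and sets the Hox code of the hindbrain and cervical cord.

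The 6 libraries held between 26950129 and 34023646 estimated counts each, and no replicate pair held identical values. Over all genes the root mean square difference in log2 CPM (counts scaled to the library total) was 0.42 to 0.43 between day 2.5 replicates, 0.41 to 0.44 between day 3 replicates and 0.52 to 0.57 between the days. Mitochondrial transcripts took 1.70% to 1.92% of the counts at day 2.5 and 1.33% to 1.43% at day 3, and the part of this difference in the results below was not tested. Hprt, the gene HM1 cells lack, was between 0.53 and 1.67 TPM (transcript abundance scaled by length and library) in all 6 libraries. Endothelial and glycolysis genes of the third day 2.5 replicate stood apart from those of the other day 2.5 libraries, and values without it are given beside the results it touches most. Of the genes named with values, 20 share at least 10% of their exon bases with another annotated gene (among them Rarb, Shh, Igf2, Nefl with Nefm, Ptbp1, Dll1, Hes5, Neurog3 and Ccnd1). The sources used here do not say whether counting used the strand, so these values are uncertain to that extent.

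Of 17990 genes tested with edgeR's quasi-likelihood test, 6189 (34.4%) were called at 0.05 after Benjamini-Hochberg adjustment, 3254 of them upward (18.1%) and 2935 downward (16.3%). Every count below of list members that rose or fell in this step is to be read against these shares. Few of these changes were large: 554 genes (3.08%) changed by at least 2-fold, 440 upward (2.45%) and 114 downward (0.634%). With limma on log2(TPM + 1), 67.4% of the called genes were higher, against 52.6% in the count test and 48.0% when only the 6 libraries of these days were fitted. The 3 TPM values of one day lay wholly above or below those of the other for 7431 genes (41.3%), and the median log2 fold change of all genes was 0.02. Fold changes were computed from counts, and can differ from the ratio of TPM values where transcript lengths differ between the days. The plot of all genes places the large changes by abundance.

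**Figure D1:**
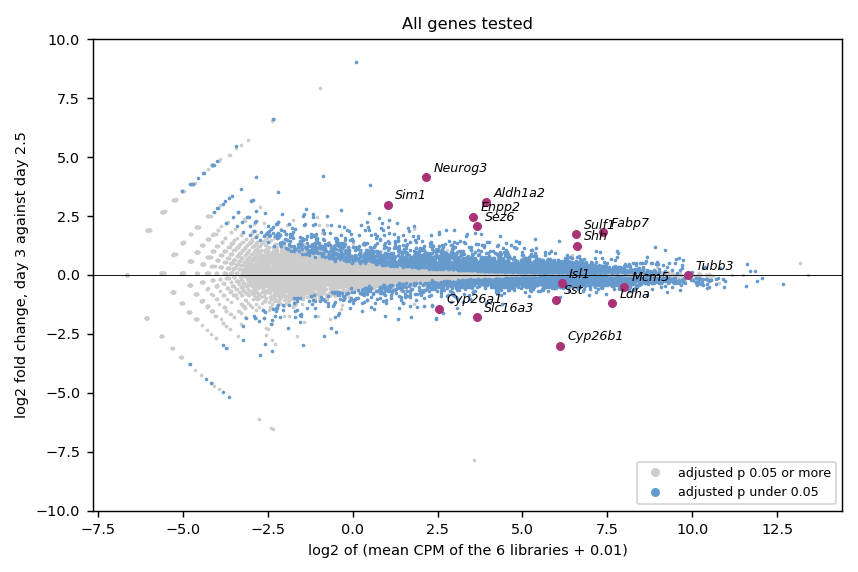
Each point is 1 of the 17990 genes tested, with the log2 of its mean CPM (+ 0.01) over the 6 libraries on the x axis and its log2 fold change (day 3 against day 2.5) on the y axis, and blue points have an adjusted p under 0.05. Aldh1a2 and Cyp26b1 stand at 3.10 and -3.00, while Isl1, Mcm5 and Tubb3 lie within 0.50 of 0.

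The largest rise among genes with at least 10 CPM was that of Aldh1a2, the enzyme that makes retinoic acid, which went from 2.30, 2.42 and 2.98 TPM to 21.5, 24.4 and 22.3 TPM. Every day 3 library stood far above every day 2.5 library, with a log2 fold change of 3.10 (standard error, SE, 0.13, adjusted p = 1.61e-18). Enpp2, the secreted enzyme that makes lysophosphatidic acid, rose by 2.48 on the log2 scale, and the neuronal membrane protein Sez6 by 2.07. Fabp7, the fatty acid binding protein of radial glia, was the most abundant of the 12 largest rises, at 173 to 195 TPM on day 2.5 and 618 to 683 TPM on day 3. The other 8 were Garem2, Cpt1a (the carnitine transferase of mitochondrial fatty acid import), Runx1, Metrnl, Tacr1 (the substance P receptor), the heparan sulfatase Sulf1, Wnt4 and Arhgef4, with log2 fold changes from 1.65 (Arhgef4) to 1.91 (Garem2).

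The largest fall was that of Cyp26b1, the retinoic acid hydroxylase, from 42.6, 53.3 and 54.2 TPM to 6.31, 6.92 and 6.07 TPM. The days did not overlap, and the log2 fold change was -3.00 (SE 0.13, adjusted p = 1.86e-17). The lactate exporter Slc16a3 (-1.79) and lactate dehydrogenase Ldha (-1.19) were also among the 12 largest falls, as were Cdhr1 (-1.61), the angiotensin receptor Agtr1a (-1.25), carbonic anhydrase Car2 (-1.20), Pcdh19 (-1.15), the myelin-associated Mobp (-1.13), somatostatin (Sst, -1.05), the taste G protein subunit Gnat3 (-1.04), the mTOR inhibitor Deptor (-1.04) and the hexokinase Hk3 (-1.01). Somatostatin was the most abundant peptide gene of these, at 327, 306 and 270 TPM on day 2.5 and 153, 143 and 152 TPM on day 3, with no overlap.

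The description of these days as the motor neuron peak held for some of the defining factors and not for all. Of 22 such genes tested, 4 had their highest mean TPM of the 12 sampled times at day 3 (18.2%, against 2.72% of all genes) and 3 at day 2.5 (13.6%, against 1.78%). Isl2, Lhx3, Lhx4 and Mnx1 were highest at day 3, and Isl1 at day 2.5. Most of the other factors were highest later, 2 at day 3.5, 2 at day 4, 2 at day 5, 3 at day 6 and 4 at day 7. Genes of the finished neuron were also mostly highest later: of 21 cholinergic and effector genes, 1, Chat, had its highest mean at day 3 (4.76%). Over the 12 hours, 12 of the 22 transcription factors rose, 4 fell and 6 did not pass the test, against 18.1% of all genes that rose and 16.3% that fell. The median log2 fold change of the list was 0.18, against 0.02 for all genes.

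Isl1, the LIM homeodomain factor that all spinal motor neurons start with, was at 72.4, 74.0 and 82.3 TPM on day 2.5 and at 67.2, 67.0 and 60.6 TPM on day 3. The days did not overlap, and Isl1 fell by 0.34 on the log2 scale (SE 0.09, adjusted p = 0.00225). Its close relative Isl2 went the other way, from 15.3, 15.4 and 16.3 TPM to 24.7, 20.5 and 28.0 TPM, a log2 fold change of 0.56 (SE 0.12, adjusted p = 0.000266), also without overlap. Lhx4 went from 24.9, 27.3 and 29.1 TPM to 41.5, 42.2 and 42.6 TPM (0.50, SE 0.08, adjusted p = 1.06e-05), and Lhx3, its partner in the complex with Isl1, from 21.8, 21.5 and 17.7 TPM to 24.8, 23.2 and 29.2 TPM (0.31, SE 0.09, adjusted p = 0.0052). All 3 day 3 libraries were above all day 2.5 libraries for both genes, and the call for Lhx3 was lost without the third replicate of either day (0.21 at the lowest). In limma's test on log2(TPM + 1) the fall of Isl1 did not pass (-0.23). Mnx1, the homeobox factor that keeps motor neurons from interneuron fates, was at 26.0, 26.3 and 24.8 TPM and then at 29.6, 25.9 and 30.7 TPM; the days overlapped and the difference did not pass the test (0.10, SE 0.07, adjusted p = 0.321).

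Among factors of motor neuron columns and pools, the Ets factor Etv4 went from 5.61, 5.09 and 3.11 TPM to 12.7, 13.01 and 12.6 TPM, a log2 fold change of 1.40 (SE 0.13, adjusted p = 3.72e-10). Bcl11a rose by 1.61 (SE 0.18) from levels of 0.35 to 0.99 TPM, and Foxp1, the Hox cofactor of limb-innervating columns, by 0.23 (SE 0.04). Besides Isl1, the members that fell were the POU factor Pou3f1 (-0.69), Tshz1 (-0.46) and Hoxa5 (-0.17). Pou3f1 was at 2.31 to 3.23 TPM and then at 1.33 to 2.01 TPM, with no overlap. The call for Hoxa5 was lost without any of 5 libraries (-0.24 to -0.11 over the 6 omissions). The plot of motor neuron genes by library shows Isl1 moving against its partners.

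**Figure D2:**
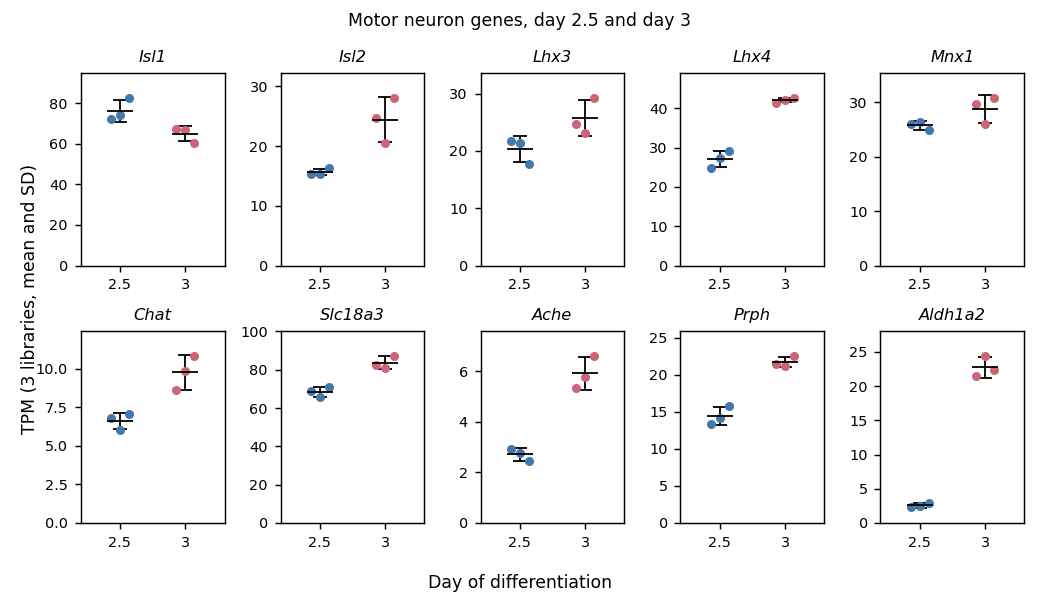
TPM (y axis) of motor neuron genes in each of the 3 libraries of day 2.5 and day 3 (x axis), with points for libraries and the bar and whisker for mean and SD. Isl1 is lower on day 3 in every library (60.6 to 67.2 against 72.4 to 82.3), and Lhx4, Isl2 and Chat are higher in every library.

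Visceral and branchial motor neurons, which use Tbx20, were represented by 10 genes tested, of which 6 rose, 2 (Hoxb1 and Hoxb2) fell and 2 did not pass. Tbx20 was at 2.91, 2.46 and 5.35 TPM and then at 9.85, 11.7 and 6.67 TPM (0.92, SE 0.20, adjusted p = 0.000522), and Tbx2 rose by 1.68 (SE 0.19) from 1.07 to 1.28 TPM to 3.35 to 4.70 TPM. Neither T-box factor overlapped between the days. Hoxb1, the gene of hindbrain segment identity, fell by 0.86 (SE 0.11) from 7.68 to 8.91 TPM to 4.17 to 5.01 TPM.

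Genes of acetylcholine synthesis and release rose, as did the enzyme that clears the transmitter. Of 21 cholinergic and effector genes tested, 15 rose, 2 fell and 4 (Calca, Gfra1, Cadm1 and Tac1) did not pass, with a median log2 fold change of 0.33. Chat, the acetylcholine synthase, went from 6.81, 6.03 and 7.05 TPM to 8.62, 9.84 and 10.9 TPM (0.51, SE 0.11, adjusted p = 0.000229). The vesicular transporter Slc18a3 was already at 68.7, 65.9 and 71.0 TPM and reached 82.6, 80.8 and 87.3 TPM (0.24, SE 0.06, adjusted p = 0.00228). The choline transporter Slc5a7 was low, at 0.48 to 0.75 TPM and then at 1.01 to 1.04 TPM (0.77, SE 0.22). None of these 3 genes overlapped between the days, and acetylcholinesterase (Ache) rose the most of the 4, by 1.12 (SE 0.11), from 2.44 to 2.94 TPM to 5.35 to 6.61 TPM.

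Peripherin (Prph), the intermediate filament of peripherally projecting neurons, rose by 0.54, and the synuclein Sncg by 0.95, from 94.0, 97.4 and 101 TPM to 183, 205 and 195 TPM. The members that fell were the cadherin Cdh20 (-0.77), at 0.79 to 0.88 TPM and then at 0.42 to 0.60 TPM, and the GDNF receptor Ret (-0.23), at 36.4 to 37.7 TPM and then at 32.5 to 33.5 TPM. The call for Ret was lost without the first day 2.5 or the second day 3 replicate (-0.24 to -0.22). The nicotinic receptor subunit Chrna3 fell by 0.49 (SE 0.09), from 26.3, 26.8 and 33.2 TPM to 19.8, 24.4 and 20.8 TPM. Of 42 transmitter receptor genes tested 10 rose and 4 fell, against 18.1% of all genes that rose and 16.3% that fell. The 4 were Chrna3, Chrnb4 (-0.40), Chrna5 (-0.32) and the AMPA receptor subunit Gria3 (-0.53). Chrna3, Chrnb4 and Chrna5 encode the subunits of the ganglionic type of nicotinic receptor and lie in a single gene cluster. Of the list's other nicotinic subunits tested, Chrna4 rose by 0.23 (0.16 and not called without the third day 3 replicate) and Chrna7 (0.13) and Chrnb2 (0.02) did not pass. The call for Chrna5 was lost without the third replicate of either day or the first of day 3 (-0.40 to -0.19). The NMDA receptor subunit Grin2a rose by 0.88, from 0.81 to 1.47 TPM to 1.85 to 2.38 TPM.

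General neuronal genes rose in most cases. Of 30 pan-neuronal genes, 24 rose, 1 (Nefh) fell and 5 (Elavl2, Tubb3, Snap25, Map2 and Gng3) did not pass (median 0.36). The neurofilament Nefm went from 67.4, 68.8 and 101 TPM to 151, 186 and 159 TPM (1.02, SE 0.11, adjusted p = 4.26e-09), and Nefl from 292, 301 and 350 TPM to 448, 501 and 439 TPM (0.51, SE 0.07). The third neurofilament subunit, Nefh, fell from 3.84, 4.46 and 4.71 TPM to 2.94, 3.23 and 3.06 TPM (-0.54, SE 0.10, adjusted p = 6.4e-05). The 3 subunits thus changed in different directions within 12 hours, with no overlap for any of them.

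The neuronal tubulin Tubb3 was the most abundant gene of the list, at 892, 867 and 1025 TPM and then at 935, 989 and 933 TPM, and did not pass the test (-0.01, SE 0.06, adjusted p = 0.947). Its sign depended on the scaling, and was positive (0.01) with DESeq2's size factors. The cell adhesion genes L1cam (0.71) and Cntn2 (0.67) and the endosomal Nsg2 (0.65) rose, as did the tubulin regulator Stmn2 (0.21), at 268 to 317 TPM and then at 336 to 359 TPM. Cntn2, carried on motor and commissural axons, reached 255 to 303 TPM.

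Of 54 axon guidance ligands and receptors, 34 rose, 3 fell and 17 did not pass (median 0.29). Efna3, an ephrin ligand of Eph receptors, rose the most, by 1.01 (SE 0.13), from 6.09, 3.78 and 3.73 TPM to 9.13, 9.62 and 10.4 TPM. Those that fell were Robo2 (-0.41), a receptor of Slit repellents, the semaphorin receptor Plxna2 (-0.38) and the netrin receptor Unc5a (-0.20). Robo2 was at 40.0, 42.7 and 49.8 TPM and then at 35.1, 33.7 and 32.1 TPM, without overlap, whereas the libraries of the days overlapped for Unc5a and its call was lost without any of 5 libraries (-0.28 to -0.16).

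Of 46 synaptic vesicle and active zone genes, 27 rose and 2 fell, Sv2b (-0.65) among them, with a median of 0.30. Syn2, a synapsin, rose by 1.76 (SE 0.15) but from low levels, 0.44 to 0.70 TPM, to 1.90 to 2.55 TPM. The vesicle proteins Sv2c and Sv2b moved in opposite directions at similar low levels, Sv2c from 0.52 to 0.75 TPM up to 0.86 to 1.35 TPM and Sv2b from 0.64 to 0.99 TPM down to 0.44 to 0.54 TPM. Of 53 ion channel genes, 23 rose and 1 fell, the potassium channel Kcnk1 (-0.34), with a median of 0.41. The call for Kcnk1 was lost without the first or second replicate of day 2.5 or the second of day 3 (-0.46 to -0.24). Scn3a, the embryonic sodium channel, rose by 1.29 (SE 0.11), from 2.16, 2.46 and 3.15 TPM to 6.88, 8.54 and 6.10 TPM, and Scn2a by 1.21 and the channel-associated Kcnip1 by 1.04.

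Of 28 RNA-binding and splicing factors tested, 15 rose, 4 (Lin28a, Lin28b, Igf2bp1 and Ptbp1) fell and 9 did not pass. The 15 became 10 to 14 with 1 library left out, 10 being without the second day 2.5 replicate. Lin28a, which blocks maturation of let-7 miRNAs, went from 90.9, 97.2 and 96.9 TPM to 64.9, 66.6 and 61.7 TPM (-0.61, SE 0.05, adjusted p = 1.99e-11), and Lin28b fell by 0.59 and Igf2bp1 by 0.32. Ptbp1, the splicing repressor of progenitors, fell by 0.29 (SE 0.04), from 406, 411 and 389 TPM to 339, 346 and 331 TPM, with no overlap. Its neuronal relative Ptbp2 was at 187 to 194 TPM and then at 191 to 206 TPM, and did not pass the test (-0.08, SE 0.05, adjusted p = 0.227). The neuronal Elavl4 (0.38), Celf4 (0.73) and Rbfox1 (0.64) rose, Elavl4 from 192 to 222 TPM to 299 to 336 TPM.

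Of 22 neuropeptide genes and processing enzymes, 9 rose and 3 fell (Sst, -1.05, Vgf, -0.85, and Pcsk1, -0.47). The granin Scg2 rose by 1.34 (SE 0.09), from 12.2, 12.3 and 14.03 TPM to 32.9, 33.0 and 34.6 TPM, the convertase inhibitor Pcsk1n by 1.42 and neuropeptide Y (Npy) by 1.18. The calls for Vgf and Pcsk1 were each lost without any of at least 4 libraries (-1.08 to -0.65 and -0.61 to -0.35). Of 19 trophic factor and receptor genes, 9 rose and 3 fell (Gfra3, -0.43, Fgfr2, -0.33, and Ret, -0.23). Ntrk2, the BDNF receptor, rose by 1.35 (SE 0.14), from 1.27 to 1.49 TPM to 3.12 to 3.91 TPM, and the neuregulin receptor Erbb4 by 1.03. The call for Gfra3 was lost without the second day 2.5 replicate or the first or second of day 3 (-0.65 to -0.27). The plot of 16 gene lists sets the neuronal lists beside those that fell.

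**Figure D3:**
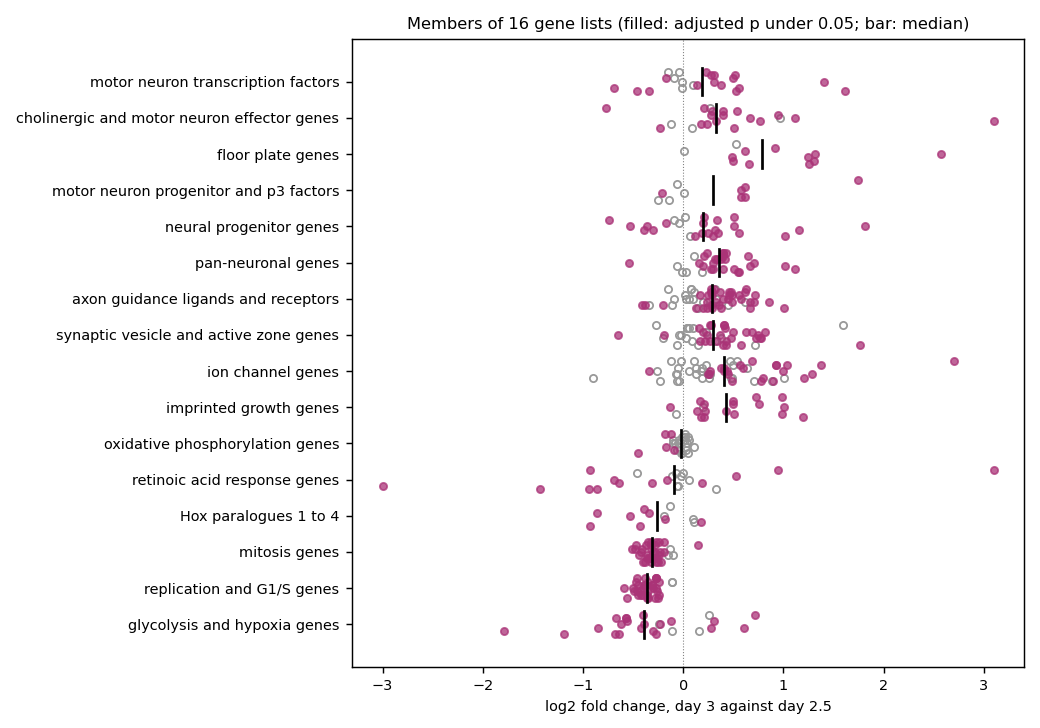
Each point is 1 member of the list named on the y axis, placed by its log2 fold change (day 3 against day 2.5) on the x axis, filled where its adjusted p was under 0.05, and the bar is the list's median. Members of the floor plate, neuronal and imprinted lists lie mostly above 0, and those of replication, mitosis and glycolysis mostly below.

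Most floor plate genes rose. Of 12 floor plate genes tested, 10 rose, none fell and 2 (Sulf2 and Lmx1a) did not pass, with a median of 0.79. Shh, the ligand the floor plate secretes, went from 35.4, 32.4 and 41.9 TPM to 88.9, 97.6 and 83.7 TPM (1.25, SE 0.09, adjusted p = 1.98e-12). Foxa2, the forkhead factor that defines the floor plate, went from 38.6, 34.3 and 46.0 TPM to 63.3, 69.8 and 62.5 TPM (0.66, SE 0.10, adjusted p = 1.65e-06). Every day 3 library was above every day 2.5 library for both. Lmx1b (1.26), the matrix protein Spon1 (0.92) and netrin (Ntn1, 0.62) rose too, Ntn1 to 326 to 350 TPM.

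Of 10 motor neuron progenitor and p3 genes, 5 rose (Sulf1, Nkx2-2, Olig1, Nkx6-2 and Slit1), 1 (Ccnd1) fell and 4 (Olig2, Nkx6-1, Nkx2-9 and Prdm8) did not pass (median 0.30). Olig2, the factor that defines motor neuron progenitors, was at 137, 132 and 106 TPM and then at 109, 95.9 and 120 TPM, overlapped between the days and did not pass the test (-0.25, SE 0.10, adjusted p = 0.0556). Without the third replicate of either day the difference passed, at -0.35 at the lowest. Nkx2-2, which defines p3, went from 48.9, 50.1 and 50.2 TPM to 79.5, 79.9 and 85.2 TPM (0.62, SE 0.06, adjusted p = 7.76e-10), with no overlap. Nkx6-1, shared by both stripes, was at 166 to 199 TPM and then at 183 to 193 TPM (0.01, SE 0.05, adjusted p = 0.879), and Nkx2-9, which marks early p3 cells, was at 47.4 to 61.3 TPM and then at 52.95 to 54.4 TPM (-0.06, SE 0.10, adjusted p = 0.669). Sulf1, which trims heparan sulfate at the ventral border, went from 15.7, 14.8 and 20.2 TPM to 56.4, 60.5 and 52.4 TPM (1.74, SE 0.09, adjusted p = 1.56e-16). Olig1 (0.62) and Nkx6-2 (0.58) rose without overlap, and Ccnd1 fell by 0.21, with overlapping libraries and a call that was lost without the third replicate of either day or the first of day 3 (-0.31 to -0.13).

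Of 25 spinal interneuron transcription factors tested, 6 rose, 5 fell and 14 did not pass, with a median of 0.21. Their log2 fold changes ran from -3.08 to 2.99, and those that fell are not reported here by name. Of all genes, 18.1% rose and 16.3% fell. Sim1 and Uncx, genes of V3 interneurons, the spinal product of p3, were among those that rose, from very low levels. Uncx is also in the list of mesoderm markers used below, so its rise is not particular to V3 neurons. Sim1, the factor that defines V3 neurons, was at 0.11, 0.18 and 0.17 TPM on day 2.5 and at 1.62, 1.34 and 1.37 TPM on day 3 (2.99, SE 0.28, adjusted p = 4.19e-10), and Uncx rose by 1.69 (SE 0.21), from 0.48 to 0.89 TPM to 1.75 to 2.55 TPM. Neurog3, a proneural factor present in p3, was at 0.84, 0.49 and 0.51 TPM and then at 10.2, 8.42 and 14.2 TPM (4.15, SE 0.25, adjusted p = 2.18e-14). In all 3 genes the lowest day 3 library was well above the highest day 2.5 library. Neurog2, the proneural factor of motor neuron progenitors, was at 91.2 to 112 TPM and then at 85.2 to 111 TPM and did not pass (-0.09, SE 0.09, adjusted p = 0.464). The plot of ventral genes by library shows these side by side.

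**Figure D4:**
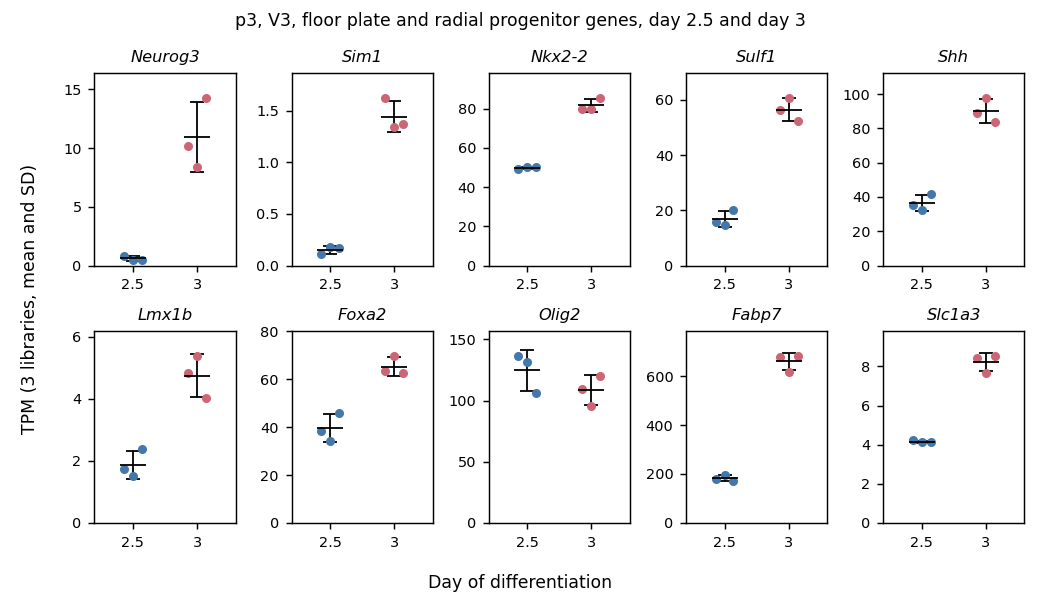
TPM (y axis) of ventral progenitor, floor plate and V3 genes in the 3 libraries of each day (x axis), with points for libraries and the bar and whisker for mean and SD. Shh, Sulf1, Nkx2-2 and Neurog3 are higher on day 3 in every library, while the Olig2 libraries of the days overlap.

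Of 23 neurogenic genes, 6 rose, 4 fell and 13 did not pass (median 0.07), against 18.1% of all genes that rose and 16.3% that fell. Besides Neurog3, the antiproliferative Btg2 (0.42), the Hes repressor antagonist Hes6 (0.36), Nhlh2 (0.23), the cell cycle inhibitor Cdkn1c (0.22) and the Notch ligand Dll1 (0.19) rose, and Neurod1 (-0.33), Insm1 (-0.29), Neurod4 (-0.27) and Mfng (-0.17) fell. Dll1 was at 60.6, 59.1 and 61.7 TPM and then at 73.7, 73.7 and 74.2 TPM, with no overlap. Dll3 did not pass the test (0.16, SE 0.09, adjusted p = 0.21). The calls for Neurod4, Insm1 and Mfng were each lost without the third day 2.5 replicate and at least 1 other library (-0.32 to -0.17, -0.40 to -0.09 and -0.21 to -0.13).

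Of 25 neural progenitor genes, 15 rose and 6 fell (median 0.20). Besides Fabp7, Ttyh1 (1.16) and the glutamate transporter Slc1a3 (1.02) rose, and Sox2, the pan-progenitor factor, rose from 130, 127 and 134 TPM to 156, 155 and 148 TPM (0.19, SE 0.05, adjusted p = 0.00363). Pax6, which marks more dorsal progenitors and is repressed by Hedgehog, fell from 13.3, 9.91 and 10.8 TPM to 7.73, 6.67 and 9.35 TPM (-0.74, SE 0.08, adjusted p = 1.2e-08). Sox1 did not pass (0.07, SE 0.06, adjusted p = 0.36). Of the Notch effectors, Hes1, at 56.5 to 58.5 TPM and then at 70.2 to 75.3 TPM, rose by 0.35, and Hes5 fell by 0.30 with overlapping libraries, 83.6 to 110 TPM and then 75.7 to 92.1 TPM, and a call that was lost without the first day 2.5 or the second day 3 replicate (-0.41 to -0.19). Of 14 Hes, Hey and Notch receptor genes 10 rose and 1 (Hes5) fell. Without the third day 2.5 replicate 5 rose, and without the second of day 2.5 or the third of day 3, 6 did. Of 16 factors of early- and late-born neurons tested, 4 rose, 4 fell and 8 did not pass, with a median of 0.08. Of all genes, 18.1% rose and 16.3% fell. Nfia (0.73) and Nfib (0.97), which mark later-born neurons, were among those that rose, and Neurod1 was among those that fell. The list mixes early and late factors, and its other called members are not reported here by name. A shift of the whole list toward later-born neurons was not tested. Nfia went from 4.01 to 5.00 TPM to 7.33 to 7.55 TPM, and Nfib from 0.95 to 1.10 TPM to 1.92 to 2.09 TPM.

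Genes of the cell cycle fell almost without exception, each by a small amount. Of 35 replication and G1/S genes, 33 fell, none rose and 2 (E2f1 and Lig1) did not pass, with log2 fold changes between -0.59 and -0.11 and a median of -0.36. Of 37 mitosis genes, 33 fell, 1 (the phosphatase Cdc25b, 0.15) rose and 3 (Top2a, Foxm1 and Ccnb2) did not pass, with a median of -0.31. Steps of 12 hours differed in this. Of the 35 replication genes, 21 fell and 5 rose in the step before (day 2 to 2.5) and 6 fell and 6 rose in the step after (day 3 to 3.5), while 33 fell from day 1.5 to 2, 35 from day 3.5 to 4 and 10, with 9 rising, from day 0.5 to 1. Of the 37 mitosis genes, 19 fell and none rose in the step before, and 3 fell and 20 rose in the step after. Of all genes, 27.2% fell from day 1.5 to 2, 20.8% from day 3.5 to 4 and 24.3%, with 23.3% rising, from day 0.5 to 1. No such share is given for the steps before and after. Tested against the step after, 24 replication and 30 mitosis genes had a lower change, against 18.0% of all genes, and 0 and 2 a higher one (19.6%). Against the step before, 13 and 8 were lower (19.3%) and 3 and 3 higher (16.5%). Replication genes are regulated by E2F factors, and mitosis genes through the CHR element, which the repressive DREAM complex binds. To show the letters, 1 promoter of each kind is printed here, 250 bases up to the start site (RefSeq, GRCm38.p6). The E2F letters searched were TTTCCCGC and TTTGGCGC and the CHR letters TTTGAA, on both strands, with matches in capitals.
Mcm5: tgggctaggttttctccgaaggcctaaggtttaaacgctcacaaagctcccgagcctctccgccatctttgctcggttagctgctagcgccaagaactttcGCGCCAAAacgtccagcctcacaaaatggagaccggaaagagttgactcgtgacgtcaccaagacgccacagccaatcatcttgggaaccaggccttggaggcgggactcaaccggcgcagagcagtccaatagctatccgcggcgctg
Cdc20: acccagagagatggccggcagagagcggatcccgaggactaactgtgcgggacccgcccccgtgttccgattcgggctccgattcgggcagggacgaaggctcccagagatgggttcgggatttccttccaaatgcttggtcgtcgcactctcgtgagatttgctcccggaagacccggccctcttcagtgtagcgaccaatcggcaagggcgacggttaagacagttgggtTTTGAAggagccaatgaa
The Mcm5 stretch is chr8:75109259-75109508, plus strand, with a match 149 bases before the start site, and the Cdc20 stretch is chr4:118437344-118437593, minus strand, with a match 18 bases before it. In 300 bases around the start, from 250 before to 50 after, the E2F letters were found for 10 of the 29 replication genes with such a window, against 1.80% of all 27025 genes with one, and the CHR letters for 21 of 31 mitosis genes, against 20.2%. Of all 32851 windows, 1.56% held the E2F letters and 17.9% the CHR letters. A match is a description of the letters and not a measured site.

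Mcm5, a subunit of the replicative helicase, was at 205, 208 and 198 TPM and then at 151, 149 and 145 TPM (-0.50, SE 0.06, adjusted p = 2.48e-07). Cdc20, the activator of the anaphase complex, was at 199, 203 and 198 TPM and then at 139, 154 and 147 TPM (-0.51, SE 0.07, adjusted p = 3.97e-07). The days did not overlap for either. Ccne1 (-0.59), the licensing factor Cdc6 (-0.56) and Cdc45 (-0.49) were the other large falls among replication genes, and the proliferation marker Mki67 fell by 0.28 (SE 0.08), a call lost without the second day 2.5 replicate (-0.37 to -0.24 over the omissions). The D-type cyclin Ccnd2 fell by 0.71 (SE 0.07), from 275, 271 and 219 TPM to 165, 157 and 167 TPM. Cdkn1c, the inhibitor that holds newborn neurons out of the cycle, was at 98.8, 96.1 and 124 TPM and then at 130, 129 and 137 TPM (0.22, SE 0.08, adjusted p = 0.0344), and was no longer called without any of 5 libraries (0.14 to 0.36).

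Most retinoic acid response genes that moved fell, in contrast to Aldh1a2. Of 22 tested, 9 fell and 4 (Aldh1a2, 3.10, Rxrg, 0.95, the retinol importer Stra6, 0.53, and Rara, 0.19, not called without the third day 3 replicate) rose, with a median of -0.09. Cyp26a1 and Rarb are the classical direct targets of the retinoic acid receptor, and each has a direct repeat of receptor letters with a 5-base spacer (DR5) near its start, which is why their 250 bases before the start site (RefSeq, GRCm38.p6) are printed. The first unit of the repeat could read AGGTCA (the consensus form), the variant AGTTCA seen in these genes, or the related forms GGGTCA (with a changed first letter) or GGTTCA (with both changes). After 5 bases of any kind, any of the same 4 forms had to follow, and both strands were searched, with the match in capitals.
Cyp26a1: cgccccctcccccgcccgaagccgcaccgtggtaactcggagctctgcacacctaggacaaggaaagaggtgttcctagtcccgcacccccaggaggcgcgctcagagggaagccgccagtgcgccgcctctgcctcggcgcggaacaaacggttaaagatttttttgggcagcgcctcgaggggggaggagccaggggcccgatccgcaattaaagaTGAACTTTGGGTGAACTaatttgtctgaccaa
Rarb: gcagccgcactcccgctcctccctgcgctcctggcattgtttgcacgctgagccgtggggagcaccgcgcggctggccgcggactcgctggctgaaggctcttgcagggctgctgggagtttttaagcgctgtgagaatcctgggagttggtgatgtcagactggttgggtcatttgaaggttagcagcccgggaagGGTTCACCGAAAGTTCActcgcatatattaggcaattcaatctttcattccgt
The Cyp26a1 stretch is chr19:37697558-37697807, plus strand, with the match on the opposite strand 32 bases before the start site, and the Rarb stretch is chr14:16575477-16575726, minus strand, with a match 53 bases before it. Since the forms searched include that of these genes, their matches were fixed by the choice of letters. No other of the 17 response genes with a 300-base window held the letters, which were in 0.0974% of all windows (32 of 32851). The match is a description and not a measured site, and its absence elsewhere says only that these letters are not in that window.

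Cyp26a1 went from 9.52, 9.43 and 7.85 TPM to 3.47, 2.94 and 3.79 TPM (-1.43, SE 0.14, adjusted p = 6.57e-10), and Rarb, a receptor gene, from 40.2, 40.2 and 37.6 TPM to 23.1, 26.5 and 26.2 TPM (-0.69, SE 0.06, adjusted p = 4.09e-11). The retinal reductase Dhrs3 fell by 0.94 (SE 0.11), from 13.5 to 16.5 TPM to 7.20 to 9.01 TPM, and the binding protein Crabp1 by 0.64 (SE 0.06), from 729 to 787 TPM to 488 to 522 TPM. None of these 4 genes overlapped between the days.

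Several of these genes alternated with the sampling time. Mean Cyp26b1 levels were 12.8 TPM at day 1.5, 3.96 at day 2, 50.01 at day 2.5, 6.43 at day 3, 51.3 at day 3.5 and 6.73 at day 4. Cyp26a1 followed the same order, at 9.90, 4.10, 8.93, 3.40, 10.6 and 4.26 TPM at those times. The days 1.5, 2.5 and 3.5 were each higher than the whole day that followed. The medium was changed daily, and the hour of the change was not given, so time since fresh medium and time in differentiation cannot be told apart in this step.

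The other steps of 12 hours that end on a whole day and share no library with this one were day 0.5 to 1, day 1.5 to 2 and day 3.5 to 4, chosen after the data were seen. Cyp26a1 fell in each, by 2.06 (adjusted p = 5.19e-14), 1.41 (4.27e-11) and 1.42 (4.57e-10) on the log2 scale. Cyp26b1 did not pass in the first (0.14, adjusted p = 0.626) and fell in the later ones by 1.86 (1.29e-12) and 3.04 (4.47e-17). Aldh1a2 fell in the first by 2.56, did not pass in the next (-0.40, adjusted p = 0.0874) and rose in the last by 0.90. The response list had 10 members lower and 10 higher in the first of these steps, 12 lower and 6 higher in the next, and 11 lower and 2 higher in the last. Of all genes, 24.3% were lower and 23.3% higher in the first, 27.2% and 26.1% in the next, and 20.8% and 19.4% in the last. The plot of levels over the 12 sampled times shows the alternation.

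**Figure D5:**
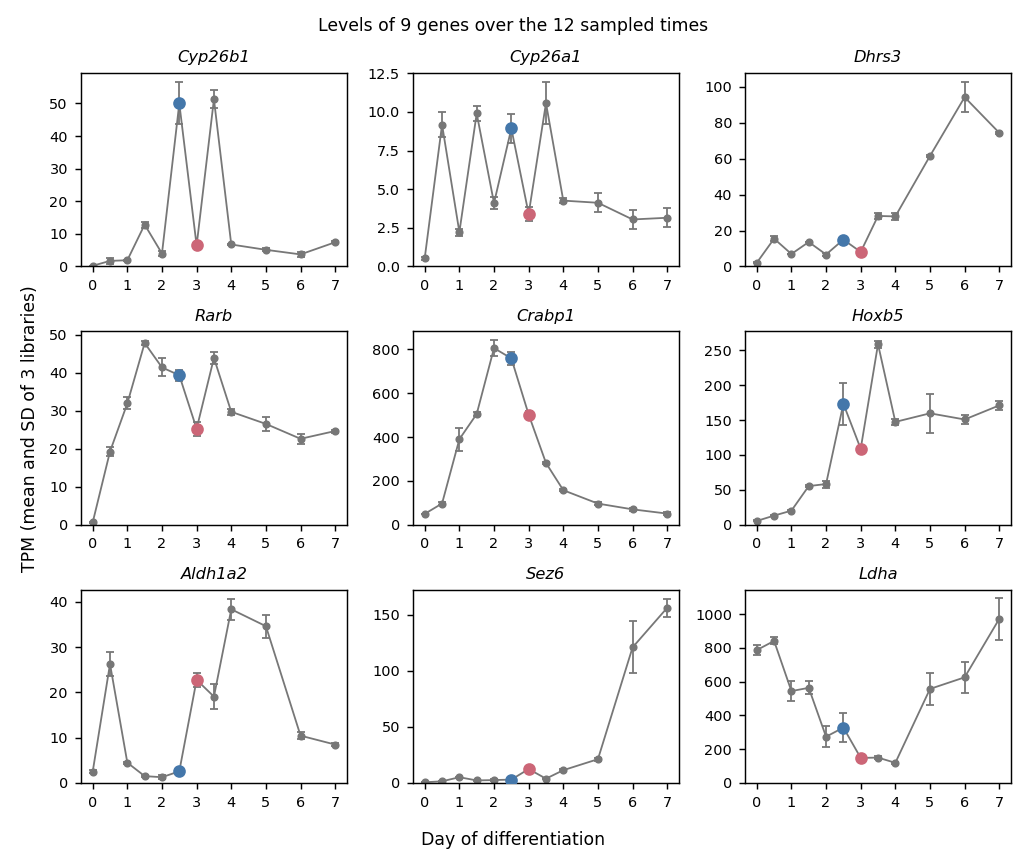
Mean TPM with SD of 3 libraries (y axis) for 9 genes over the 12 sampled days from 0 to 7 (x axis), with day 2.5 in blue and day 3 in red. Cyp26b1 and Cyp26a1 alternate between days 1.5 and 4, while Aldh1a2 steps up from 2.57 TPM at day 2.5 to 22.8 TPM at day 3.

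Hox genes moved in both directions. Of 12 members of paralogue groups 1 to 4, found in hindbrain and upper cervical cord, 7 fell and 1 (Hoxc4, 0.18) rose, with a median of -0.26, and Hoxb4 fell by 0.43 (SE 0.07), from 90.7, 104 and 117 TPM to 77.3, 84.2 and 77.2 TPM. The list's median was 0.40 in the step before and 0.11 in the step after. Tested against the step before, 8 had a lower change and 0 a higher one (19.3% and 16.5% of all genes). Against the step after, 7 were lower and 0 higher (18.0% and 19.6%). From day 0.5 to 1, 4 fell and 7 rose (24.3% and 23.3%). From day 1.5 to 2, 7 fell and 2 rose (27.2% and 26.1%), and from day 3.5 to 4, 4 and 0 (20.8% and 19.4%). In the present step Hoxb2 fell by 0.39. Of 11 members of groups 5 to 8, 5 rose (Hoxc8, 0.88, Hoxa6, 0.82, Hoxd8, 0.72, Hoxc6, 0.68, and Hoxc5, 0.31) and 3 fell (Hoxb5, -0.71, Hoxb8, -0.26, and Hoxa5, -0.17). Hoxc6, a marker of brachial level, went from 35.8, 29.4 and 23.9 TPM to 52.5, 43.4 and 52.0 TPM (0.68, SE 0.14, adjusted p = 0.000288), without overlap. Hoxb5 went the other way, from 145, 171 and 205 TPM to 106, 113 and 107 TPM (-0.71, SE 0.09, adjusted p = 8.43e-08). The calls for Hoxc4 and Hoxa6 were lost without the first day 2.5 and the third day 3 replicate (0.14 and 0.62 at the lowest). None of 7 tested members of groups 9 to 13 passed the test.

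The targets most used as readouts of Hedgehog signalling did not pass the test, while Shh rose. Ptch1, the receptor and a direct target, was at 203, 192 and 199 TPM and then at 199, 201 and 205 TPM (0.01, SE 0.04, adjusted p = 0.903), and Gli1, a target used as a readout of the pathway, was at 25.5, 22.6 and 16.4 TPM and then at 22.0, 22.8 and 25.8 TPM (0.04, SE 0.09, adjusted p = 0.761). Hhip, an inhibitory target, was at 4.76 to 7.01 TPM and then at 6.30 to 6.58 TPM (0.04, SE 0.08). The libraries of the days overlapped for all 3. Of 10 targets in the list, 4 rose (Foxf1, 0.78, Foxa2, 0.66, Nkx2-2, 0.62, and Hsd11b2, 0.49), 1 (Ccnd1, -0.21) fell, and the others did not pass either. The call for Hsd11b2 was lost without any of 5 libraries (0.38 to 0.61). Gli3, the repressor of the pathway in dorsal cells, fell by 0.75 (SE 0.07), from 6.11 to 7.17 TPM to 3.85 to 5.13 TPM.

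Of 25 Wnt and Fgf pathway genes, 10 rose, 2 (Sp8, -0.36, and Axin2, -0.18) fell and 13 did not pass, with a median of 0.13. Dusp6, the ERK phosphatase, went from 18.5, 21.9 and 28.6 TPM to 50.3, 51.2 and 45.8 TPM (0.93, SE 0.11, adjusted p = 5.08e-08), and the Fgf antagonists Spry2 and Il17rd rose by 0.59 and 1.04. Egr1, an immediate early gene, rose by 1.32 (SE 0.16), from 1.73 to 2.77 TPM to 5.29 to 6.11 TPM, and of 24 immediate early genes 8 rose and none fell. Of 14 BMP pathway genes 8 rose and 1 (Id4, -0.24) fell, Bmp4 rising by 1.26 from 0.84 to 1.25 TPM and Id2, a target, by 0.74 from 15.4 to 18.2 TPM to 27.3 to 29.9 TPM. The call for Id4 was lost without the second or the third replicate of either day (-0.30 to -0.19).

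Glycolysis and hypoxia genes were lower on day 3. Of 25 tested, 17 fell and 4 (Pfkp, 0.72, Ndrg1, 0.61, Vegfa, 0.31, and Hk1, 0.28) rose, with a median of -0.39. Members also fell in the other steps that end on a whole day. From day 0.5 to 1, 21 fell and 2 rose (24.3% and 23.3% of all genes). From day 1.5 to 2, 19 fell and 4 rose (27.2% and 26.1%), and from day 3.5 to 4, 10 and 4 (20.8% and 19.4%). Tested against the step before, 16 had a lower change and 3 a higher one (19.3% and 16.5%). Against the step after, 12 were lower and 4 higher (18.0% and 19.6%). The summed level of the list was 6898 to 8071 TPM on day 2.5 and 5598 to 5778 TPM on day 3. Ldha, which makes lactate, was at 349, 403 and 233 TPM and then at 149, 157 and 140 TPM (-1.19, SE 0.14, adjusted p = 7.34e-08), and the lactate exporter Slc16a3 at 20.1, 26.7 and 8.03 TPM and then at 7.29, 5.11 and 6.58 TPM (-1.79, SE 0.29, adjusted p = 8.76e-06). The third day 2.5 replicate was the lowest of its day for both, and without it the values were -1.39 for Ldha and -2.13 for Slc16a3 and the number of falling members was 17. Omission of other single libraries gave 11 to 16, 11 being without the second day 2.5 replicate. Pdk1 (-0.85), Aldoa (-0.68), Pgk1 (-0.62) and Gapdh (-0.42) also fell, Gapdh from 3215 to 3433 TPM to 2460 to 2638 TPM. Of 27 oxidative phosphorylation genes 5 (Cycs, Ndufs1, Atp5b, Uqcrc1 and Atp5a1) fell and none rose, with a median of -0.02. The 5 became 3 without the second day 2.5 or the first day 3 replicate, and up to 2 rose under other settings, the 2 being with limma on log2(TPM + 1).

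Of 29 genes of the integrated stress response, 6 rose, 3 (Psat1, Ddit4 and Cth) fell and 20 did not pass. The median was 0.07, and of all genes 18.1% rose and 16.3% fell, so the list as a whole barely differed from all genes. The glutathione-degrading Chac1 rose by 1.09 (SE 0.27), from 1.36 to 3.04 TPM to 3.24 to 6.06 TPM, the alanine transaminase Gpt2 by 0.58 and the transcription factor Ddit3 by 0.47. Asns, the asparagine synthetase, was at 82.6 to 103 TPM and then at 87.9 to 117 TPM and did not pass (0.09, SE 0.08, adjusted p = 0.41).

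Imprinted growth genes rose: of 19 tested, 16 rose, 1 (Grb10, -0.13) fell and 2 did not pass, with a median of 0.43. Igf2, the paternally expressed growth factor, went from 178, 165 and 281 TPM to 474, 483 and 452 TPM (1.20, SE 0.11, adjusted p = 2.63e-10), and its maternally expressed neighbour H19 from 67.8, 72.6 and 120 TPM to 182, 186 and 169 TPM (0.99, SE 0.13, adjusted p = 3.46e-07). The third day 2.5 replicate was the highest of its day for both and still below every day 3 library, and without it the values were 1.45 for Igf2 and 1.30 for H19. Dlk1 (1.01) and Magel2 (0.99) rose as well, and the call for Grb10 was lost without the first day 2.5 or the second day 3 replicate (-0.15 to -0.10). Of 26 chromatin remodelling genes of the BAF complex 9 rose and 9 fell, against 18.1% of all genes that rose and 16.3% that fell. Its actin-related subunits, which exchange as progenitors become neurons, moved apart: Actl6b rose from 7.60, 7.10 and 7.99 TPM to 15.4, 15.7 and 15.6 TPM (0.98, SE 0.09), and Actl6a fell from 116, 132 and 121 TPM to 107, 107 and 103 TPM (-0.26, SE 0.05).

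Markers of cells other than ventral neural cells were present on both days. Of their lists, the endothelial one had the largest sum on each day. Of 17 mesoderm markers, 10 rose and none fell, their sum going from 40.4 to 45.3 TPM to 57.2 to 86.9 TPM, and Col1a1 rose by 0.90. Of 11 blood markers, 5 fell, Hba-x, Hbb-bh1, Hbb-y and Hba-a1 among them, and 1 (Runx1) rose, with sums of 49.1 to 71.8 TPM and then 40.5 to 49.6 TPM, and the embryonic globins Hba-x (-1.78) and Hbb-bh1 (-1.76) fell, Hba-x from 12.8 to 16.1 TPM to 2.77 to 4.92 TPM. The sums of endothelial markers were 151 to 250 TPM and then 210 to 245 TPM, 3 of 19 (Pecam1, Cdh5 and Egfl7) rising and 1 falling, Etv2, which had 12 counts over the day 2.5 libraries and 0 over those of day 3. Leaving out the third day 2.5 replicate raised the 3 to 10, leaving out the second lowered it to 0, and without the first of day 2.5 or the first or second of day 3 it was 1. Cdh5, the endothelial cadherin, was at 17.7, 19.6 and 37.5 TPM and then at 36.1, 37.9 and 31.1 TPM (0.44, SE 0.17, adjusted p = 0.0428, and 0.24 to 0.85 over the omissions, the call being lost without the first or second replicate of either day), and Runx1, expressed in early blood and endothelium as well as in some neurons, was at 1.42, 1.57 and 3.21 TPM and then at 6.84, 8.83 and 6.81 TPM (1.78, SE 0.22, and 2.24 without the third day 2.5 replicate).

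Neural crest markers summed to 14.7 to 18.0 TPM and then to 18.8 to 23.8 TPM (Erbb3 and Ets1 of 10 rose, but none without the first or second day 2.5 or the first day 3 replicate). Endoderm markers summed to 25.8 to 36.6 TPM and then to 35.5 to 42.8 TPM (Cdh1 of 12 rose, and Krt14 and Afp were at 0), and glial markers to 127 to 132 TPM and then to 123 to 125 TPM (5 of 17 rose, Aqp4, Aldh1l1, Slc1a3, Pdgfra and Nfia, and 3 fell, Slc1a2, Mbp and Gja1). The 5 became 3 without the second day 2.5 or the third day 3 replicate, and with limma on log2(TPM + 1) 3 rose and 1 fell. Of 21 pluripotency and caudal epiblast genes, 5 rose (T, 0.97, Zfp42, 0.80, Pou5f1, 0.79, Nanog, 0.75, and Dppa5a, 0.74) and 3 fell (Nkx1-2, -1.87, Fgf5, -1.09, and Dnmt3b, -0.37), with Cdx4 and Msgn1 at 0. Pou5f1, which maintains pluripotency, was at 1.34, 2.92 and 3.32 TPM on day 2.5 and at 3.73, 4.58 and 4.12 TPM on day 3, without overlap (SE 0.25, adjusted p = 0.0145). Pou5f1, Nanog and Dppa5a have near-identical pseudogenes, which makes their counts uncertain. Calls were lost without the first day 2.5 replicate for Pou5f1, T and Dppa5a, without the second for Pou5f1 and T, and without the second of day 3 for T (0.52 to 1.19 for Pou5f1, 0.57 to 1.29 for T and 0.55 to 0.92 for Dppa5a). Nkx1-2, a gene of the caudal progenitors these cultures start from, went from 1.85 to 2.50 TPM to 0.53 to 0.68 TPM. The list summed to 35.1 to 41.6 TPM and then to 42.1 to 50.4 TPM. The part of these other cells in the changes above was not tested.

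The pace of change differed from that of the steps on either side, which share a day with this one and whose contrasts take that into account. The change from day 2.5 to 3 differed from that of day 2 to 2.5 for 6431 genes (35.7%) and from that of day 3 to 3.5 for 6766 genes (37.6%). Of the 30 pan-neuronal genes, 24 had a lower log2 change than in the step before and 1 a higher one, against 19.3% of all genes lower and 16.5% higher. Nefl rose by 0.51 after 2.32 (difference -1.81, adjusted p = 1.44e-13), Stmn2 by 0.21 after 1.65 (-1.45, 5.28e-13), and Tubb3 was at -0.01 after 1.44 (-1.44, 3.81e-12). Isl1 fell by 0.34 after a rise of 0.81 (-1.14, adjusted p = 1.96e-07). Scg2 rose by 1.34 after 3.81 (-2.47, 2.01e-10), and Nefh fell by 0.54 between rises of 1.55 and 1.33 (-2.09 against the step before, 4.84e-11, and -1.87 against the step after, 1.01e-09).

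Of the 12 floor plate genes, 6 had a higher log2 change than in the step before and 2 a lower one (16.5% and 19.3% of all genes). Against the step after, 8 had a higher change and none a lower one, where 19.6% of all genes were higher and 18.0% lower. Rises of this list were also seen in the other steps that end on a whole day. From day 0.5 to 1, 8 rose and 2 fell (median 0.85), where 23.3% of all genes rose and 24.3% fell. From day 1.5 to 2, 8 rose and 1 fell (0.61), where 26.1% rose and 27.2% fell. From day 3.5 to 4, 10 rose and none fell (0.66), where 19.4% rose and 20.8% fell. The median here was 0.79. Sulf1 rose by 1.74 where it was at -0.19 in the step before and -0.06 in the step after (differences 1.93, adjusted p = 1.21e-11, and 1.80, 1.78e-11), Shh by 1.25 against 0.28 and 0.14 (0.98, 1.33e-05, and 1.11, 6.72e-07), and Nkx2-2 by 0.62 against 0.04 and 0.03 (0.59, 3.97e-05, and 0.59, 2.07e-05). Metrnl and Wnt4 also rose in this step, by 1.76 and 1.67, with steps of -0.04 and -0.02 before it and 0.03 and 0.22 after it. Isl2, Lhx3, Lhx4 and Chat rose here and fell in the next 12 hours, by 0.78, 0.62, 0.78 and 0.40. The differences between these steps had adjusted p of 2.71e-06 for Isl2, 1.13e-05 for Lhx3, 1.6e-08 for Lhx4 and 0.000137 for Chat.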

How the data were processed

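Poly(A) RNA of 36 libraries (12 sampled times, 3 libraries each) was sequenced, and the 6 libraries of day 2.5 and day 3 were compared. The authors deposited estimated counts and TPM per gene, made with bcl2fastq 2.20.0 and RSEM on GRCm38, per the submitters' processing notes. For the aligner, annotation release and strand setting, the sources used here give nothing. The deposited estimated counts (6.87% of values not whole) were rounded, and the deposited TPM values were used for levels. Of 51912 gene IDs, 51633 matched a symbol. The fit used edgeR 4.0.16 (R 4.3.3): filterByExpr (17990 genes), TMM scaling, 1 group per sampled time over all 36 libraries (24 residual degrees of freedom), the quasi-likelihood test, and Benjamini-Hochberg adjustment over all genes, called under 0.05. All groups share 1 estimate of the spread. SE values are approximate (absolute log2 fold change over the root of F). Estimated counts from 26950129 to 34023646 per library set the precision. On simulated counts of the same size for day 3 against day 2.5 (17990 genes), 64.2% of genes changed 1.5-fold, 67.2% changed 2-fold and 95.5% changed 4-fold were recovered, and 6.21% of calls were false. The simulation held each gene at 1 level over all times and changed 67, 67 and 66 genes by these folds, at day 3 only. Far more genes were called in the data, so these rates do not carry over to them.

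The settings tried besides were no filter, DESeq2 1.42.0, its median-of-ratios factors within edgeR, limma 3.58.1 on log2(TPM + 1) and log2(TPM + 0.1), the libraries of the compared days alone, the replicate number as a block, and leaving out each library. The members and lists were chosen with earlier results of these data known. Genes were named from a panel of known regulators, from the 12 largest rises and 12 largest falls (called, without overlap in TPM, at least 10 CPM in the higher group, no predicted genes), from the 5 largest called changes of each of 49 lists with all members of short lists, and from the largest differences between steps. Genes outside this rule (Crabp1, and those named because 5 or fewer members of a list moved a given way or did not pass) were chosen after their values were seen. The named genes are those for which the text needs values, and not all that the rule allows. Some members of the lists are counted but not reported here by name. Promoter windows and start sites came from the RefSeq table of GRCm38.p6.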

Additional observations from a re-analysis of the deposited data

Results flagged for a closer look

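The change from day 2.5 to day 3 was set against the 12 hours before and after it, in 1 test per gene of the difference between steps (edgeR's quasi-likelihood test, adjusted over all genes). The steps share a day, so a high or low day 2.5 or day 3 alone gives a difference. It differed for 6431 genes from the step before and for 6766 genes from the step after.

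Among the named genes, Cyp26b1 had the most negative differences against both steps: -6.63 against the step before (adjusted p = 1.86e-21) and -5.99 against the step after (adjusted p = 9.66e-18), having risen by 3.63 and 2.99 in those steps. The protocadherin Pcdh19 also rose, fell and rose again (differences of -2.47 and -2.76). Dhrs3 fell here and rose by 1.81 in the next step (-2.74). The synuclein Sncg rose by 0.95 after a rise of 3.61 (-2.66).

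In the other direction, Gpt2 and Asns, enzymes of amino acid synthesis under the stress response factor Atf4, had differences of 2.71 and 2.49 against the step before, in which they fell by 2.14 and 2.40. Slc1a3, a glutamate transporter of progenitors and glia, fell by 1.52 and then rose by 1.02 (2.54). Against the step after, the difference was 3.65 for Sez6, which then fell by 1.58, 3.36 for Aldh1a2 and 2.68 for Cpt1a.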

How the results depend on the processing

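The 6189 changed genes came to between 4821 and 6181 under the other scalings, tests, filters and library sets. Omission of 1 library at a time gave 5040 to 5736 changed genes, and 495 to 553 changed by at least 2-fold. With limma on log2(TPM + 1) 135 genes changed by at least 2-fold, against 554, since a pseudocount of 1 shrinks low genes. Genes whose change differed from the step before numbered 5140 to 6623 with 1 library left out, and from the step after 5198 to 6531. Of 197 genes given with values, 182 were called. None of the called genes changed direction under 13 alternatives each, and 147 kept the call in all of them.

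Reversed signs were limited to 9 uncalled genes. Tubb3 became 0.01 with median-of-ratios scaling and with DESeq2 and 0.04 in both limma fits, and Ptbp2 became 0.05 in both limma fits. Ptch1 was -0.00 when only the libraries of the days compared were fitted. With 1 library left out the ranges were -0.05 to 0.07 for Tubb3, -0.04 to 0.09 for Nkx6-1, -0.16 to 0.03 for Nkx2-9, -0.18 to 0.01 for Neurog2, -0.02 to 0.04 for Ptch1, -0.11 to 0.18 for Gli1, -0.03 to 0.08 for Hhip and -0.03 to 0.07 for Chrnb2. The cause was not tested.

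With the replicate number as a block, 6129 genes changed, 553 by at least 2-fold, and 6357 and 6703 differed from the neighbouring steps. Samples with the same number did not deviate together (correlations of -0.00, -0.11 and -0.22, against -0.20 to 0.27 for other numbers). With 3 libraries a day, such values cannot settle whether the numbers pair the samples.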
